A study of Rattus norvegicus with 8 samples.

Results

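Interferon-stimulated genes were followed through hypobaric hypoxia in rat lung, with or without cobalt given beforehand. A list of 35 gene names, 3 of them older names of genes already on it, stood for 32 genes. Of these, 25 were found by name on the array, with 33 of its 41012 probes, and all 25 passed the filter on dim probes and were among the 24143 genes tested. The other 7 (Irf8, Irf9, Ifi27, Ifih1, Dhx58, Rsad2 and Eif2ak2) had no probe under that name, and 6 of these are described further on under older names. The 25 genes tested were Adar, Bst2, Ddx58, Gbp2, Herc6, Ifi35, Ifi44, Ifit1, Ifit2, Ifit3, Ifitm1, Ifitm2, Ifitm3, Irf1, Irf7, Isg15, Isg20, Mx1, Mx2, Oas1, Oasl1, Parp9, Stat2, Trim25 and Usp18. Of the named genes below, 6 passed a test in a fitted comparison, and 8 more were chosen after their values were seen, for the widest range over the arrays among the rest. Irf7, Ddx58 and Ifitm2 were added for their roles, also after their values were seen.

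Rats received cobalt (12.5 mg per kg body weight) or normal saline for 7 days, and then spent 6, 12, 24 or 48 h at the air pressure of 30000 ft. Each of the 8 groups, cobalt or saline at 1 duration, was measured on 1 dual-channel array of 60-base probes, on which lung RNA after hypoxia was set against the 0 h lung RNA of the same pretreatment. Values are log2 ratios of hypoxia over 0 h, so that 1 is a 2-fold higher and -1 a 2-fold lower level after hypoxia. Hypoxia RNA carried the dye Cy3 on all 4 arrays of the cobalt slide and Cy5 on all 4 of the saline slide, so slide, scan and dye go with pretreatment and cannot be told apart from it. The labels used here give no strain, age or number of animals per RNA. A p-value therefore measures the spread between arrays and durations, which may be technical, and leaves out the spread of the 0 h RNA. A comparison between arrays of 1 slide does not depend on the 0 h RNA or on the dye, and most of what follows rests on such comparisons.

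Interferons are secreted proteins by which cells warn each other of viruses. Type I interferons bind the Ifnar receptor, whose kinases Jak1 and Tyk2 pass the signal on to a complex with Stat2 and Irf9, which enters the nucleus and binds the interferon-stimulated response element (ISRE) in front of their target genes. Interferon gamma acts on another site, the gamma-activated site (GAS). The targets include effectors that block viral replication, sensors of viral RNA, the ubiquitin-like protein Isg15 with the enzymes that attach and remove it, and the transcription factors Irf1 and Irf7, which carry the response further.

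RefSeq promoters of the GRCr8 build, each from 250 bases before to 50 bases after the start of a gene, were given for 17 of the 25 genes. The core of the ISRE, searched on both strands as GAAA, any 2 bases and GAAA again, was present in 9 of these 17 (52.9%), against 3.92% of all 33469 promoters in the table. The core of the GAS, searched as TTCNNNGAA, which reads the same on both strands, was present in 4 of 17 (23.5%), against 8.87% of all promoters. In 3 promoters (Bst2, Ifitm3 and Oas1) both cores occurred, and in Bst2 they overlap. A match is a description of the sequence and not a measured binding site. One window per promoter with a match is shown so that the matches counted above can be read. Each is printed on the strand of its gene, with the core in capitals (as a pair of TTTC blocks where it lies on the opposite strand). The first 9 hold the ISRE core and the last, of Irf1, holds the GAS core:
Oas1 (chr12:41330421-41330450, + strand): tcgggaaatgGAAACTGAAAatcttgttcc
Ifi44 (chr2:243303847-243303876, - strand): gcacactgagTTTCAGTTTCatttcccagg
Ifit3 (chr1:241527272-241527301, + strand): tttaagtctgTTTCAGTTTCtagtttccac
Gbp2 (chr2:234005686-234005715, + strand): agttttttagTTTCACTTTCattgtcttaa
Isg20 (chr1:142239957-142239986, + strand): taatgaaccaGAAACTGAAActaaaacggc
Bst2 (chr16:18255073-18255102, - strand): ccaggaaaatGAAACTGAAAggtggcagca
Irf7 (chr1:205800073-205800102, - strand): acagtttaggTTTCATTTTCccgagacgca
Ifitm3 (chr1:205541783-205541812, - strand): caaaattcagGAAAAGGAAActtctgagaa
Ifitm2 (chr1:205482362-205482391, - strand): ccaccaacagGAAAAGGAAActgctagaga
Irf1 (chr10:38417783-38417811, + strand): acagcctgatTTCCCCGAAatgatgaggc

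The cores printed for 5 promoters (Oas1, Ifi44, Ifit3, Isg20 and Bst2) are identical when read on 1 strand, and those of Ifitm2 and Ifitm3 have the same letters as each other. The match lay 69 bases before the start in Irf7, 44 bases before it in Ifit3, 31 in Gbp2 and 92 in Isg20. No match was found in the windows of Herc6, Ifi35, Mx1, Oasl1, Parp9, Stat2 and Trim25 for either core, which says only that these letters are not in this stretch. A pair of array probes is also shown, because the results turn on their genes: the only one for Isg15, and the dimmer of the 2 for Bst2. Both positions are those of the array design on build rn3, and all letters are in lower case since no motif is marked:
Isg15 (chr5:173045169-173045228, - strand): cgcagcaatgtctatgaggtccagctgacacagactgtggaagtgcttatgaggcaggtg
Bst2 (chr16:18699041-18699100, - strand): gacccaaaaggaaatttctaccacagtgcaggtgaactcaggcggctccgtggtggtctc

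The genes moved together over time, and in a different order in the 2 pretreatments. On the cobalt slide, both late arrays (24 and 48 h) were above both early arrays (6 and 12 h) for 22 of 25 genes, against 22.7% of all genes tested. The exceptions were Ifitm1, Ifitm2 and Trim25. On the saline slide, the 12 h array was the highest of the 4 for 24 of 25 genes, against 25.9% of all genes, and Ifitm2 was the exception. The saline 6 h array was the lowest of the 4 for 14 genes, against 26.4% of all genes. The same 14 genes met all of these orders at once, against 1.99% of all genes. Under 6 other settings, chiefly of background and scaling, these counts were 21 to 22, 21 to 24 and 11 to 15 of 25. With 1 array per duration there is no replicate of any of these steps. The sample title of saline 12 h carries the letter a, and those of the other saline durations and their control carry b. What these letters mean is not given, and on this slide the letter cannot be told apart from the 12 h duration. In whole lung RNA, a change in the number of cells that express a gene cannot be told apart from a change in RNA per cell.

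**Figure D1:**
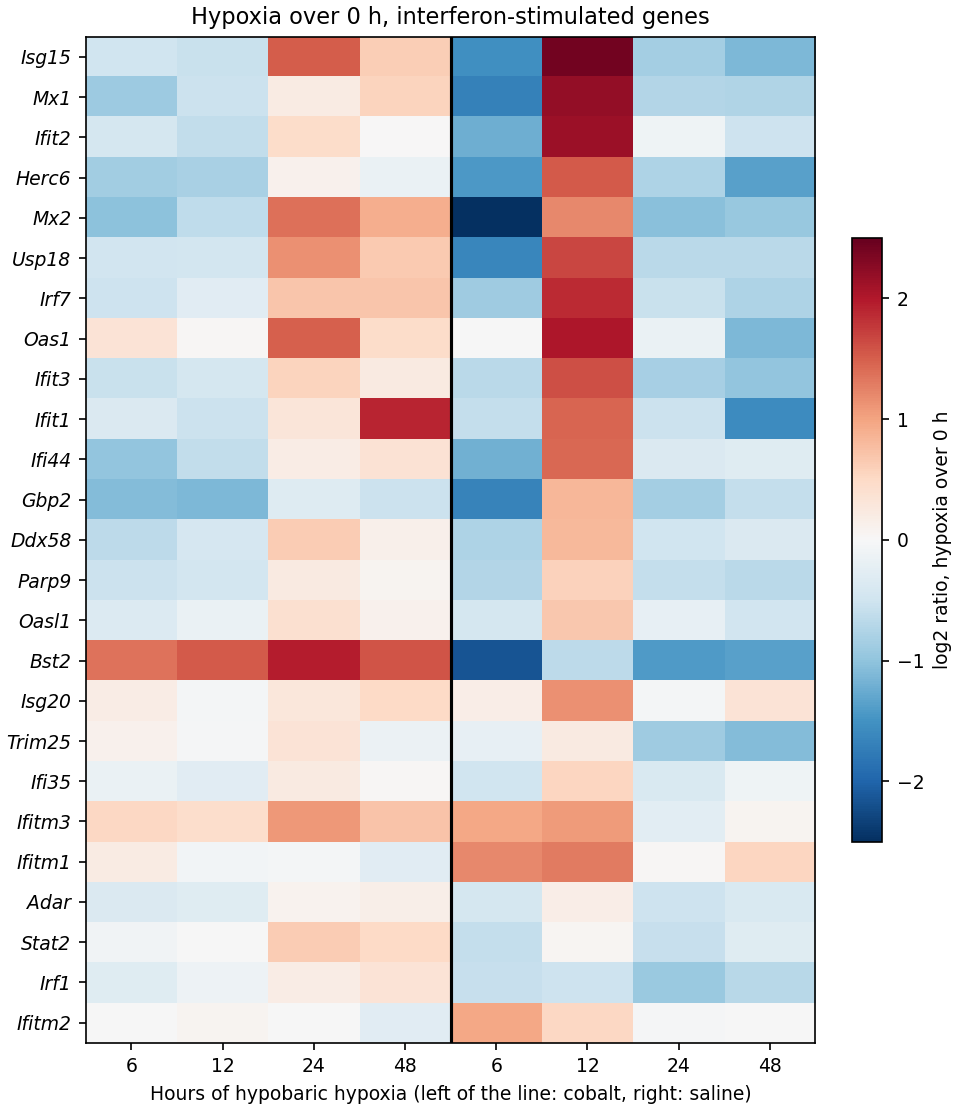
Log2 ratio of hypoxia over 0 h (colour, red higher and blue lower, limited to 2.5 on either side) for each of the 25 genes (down) on each of the 8 arrays (across, by hours of hypoxia, cobalt left of the line and saline right of it), with the genes sorted by the saline 12 h value minus the mean of the other 3 saline arrays. The saline 12 h column is red for 23 of 25 genes, while Bst2, with this loess scaling, is red on all cobalt arrays and blue on all saline arrays.

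In size, the cobalt step was the smaller. The mean of 24 and 48 h was above the mean of 6 and 12 h in cobalt lungs by a median of 0.67 over the 25 genes, against a median of -0.01 over all genes. It was at least 2-fold higher for 7 genes, against 0.319% of all genes. In saline lungs the 12 h value exceeded the mean of the other 3 durations by a median of 1.36 on the log2 scale, against -0.02 over all genes. That difference was at least 2-fold for 15 genes, against 1.8% of all genes, and it was above 0 for all 25, against 46.8% of all genes. With these settings included, the median cobalt step was 0.67 to 0.85 and the median saline step 1.32 to 1.87. The cobalt 12 h array differed little from the cobalt 6 h array, with a median of 0.06 and no gene past 2-fold, against 0.369% of all genes higher and 0.841% lower. The sizes of the 2 steps come from different slides and durations, and their difference was not tested.

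**Figure D2:**
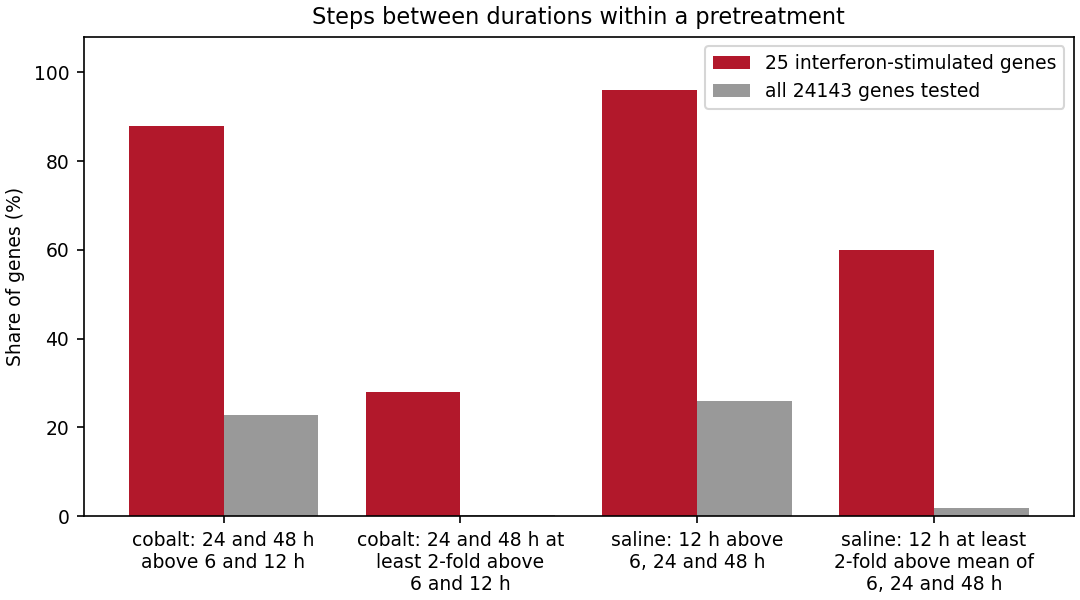
Share of genes in percent (y axis, from 0) that met each of 4 descriptions of a step between durations on 1 slide, for the 25 interferon-stimulated genes (red bars) and for all genes tested (grey bars). The red bars stand at 88% and 28% for cobalt and at 96% and 60% for saline, against 22.7%, 0.319%, 25.9% and 1.8% for all genes.

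Isg15, a ubiquitin-like protein that is linked to other proteins and is also secreted, had the widest range over the arrays among the members that passed no fitted comparison. Its log2 ratios were -0.51, -0.55, 1.51 and 0.62 on the cobalt arrays at 6, 12, 24 and 48 h, and -1.52, 2.41, -0.86 and -1.11 on the saline arrays at the same durations. The cobalt values changed sign between 12 and 24 h, while in saline only 12 h was above 0. The saline 12 h level was 15.3-fold the saline 6 h level, and the late cobalt level 3.02-fold the early cobalt level (9.38-fold and 4.22-fold with scaling between arrays). Usp18, the protease that removes Isg15 and also dampens signalling at the interferon receptor, had log2 ratios of -0.48, -0.46, 1.15 and 0.66 on the cobalt arrays and -1.63, 1.67, -0.68 and -0.67 on the saline arrays. Herc6, the ligase that attaches Isg15 in mice, had -0.87, -0.82, 0.11 and -0.16 on the cobalt arrays and -1.43, 1.54, -0.76 and -1.35 on the saline arrays. In both genes, as in Isg15, the saline 12 h array was the highest of all 8 and the late cobalt arrays were above the early ones. Trim25, a ligase that activates the RNA sensor Ddx58, lay between -0.15 and 0.35 on the cobalt arrays and between -1.09 and 0.22 on the saline arrays, with its saline low point at 48 h.

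Among the antiviral effectors, the Mx genes encode dynamin-like GTPases that trap viral nucleocapsids. Mx1 had log2 ratios of -0.91, -0.54, 0.21 and 0.55 on the cobalt arrays and -1.68, 2.19, -0.74 and -0.75 on the saline arrays. Mx2 had log2 ratios of -1.03, -0.63, 1.38 and 0.91 on the cobalt arrays and -2.49, 1.20, -1.05 and -0.95 on the saline arrays. Both were below 0 h on the early cobalt and above it on the late cobalt arrays, and for Mx2 the cobalt 24 h value lay above the saline 12 h value. From 6 to 12 h of hypoxia in saline lungs the level of Mx1 was 14.7-fold and that of Mx2 12.9-fold as high. Over the settings tried these folds ran between 9.12 and 33.9 for Mx1 and between 8.47 and 23.0 for Mx2, lowest with scaling between arrays and highest with the ratio of the scanner software. The saline 6 h levels after hypoxia were low, at 6.79 for Mx1 and 6.97 for Mx2 on the log2 scale of normalized intensity, which includes the offset of 50. The late cobalt level of Mx2 was 3.94-fold the early one, the widest cobalt step of the 25 genes in the reported values, and 6.08-fold with the ratio of the scanner software.

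The Ifit proteins bind viral RNA that lacks the cap marks of the host. Ifit2 had log2 ratios of -0.43, -0.61, 0.46 and 0.02 on the cobalt arrays and -1.23, 2.13, -0.12 and -0.52 on the saline arrays. The gene named Ifit1 had -0.37, -0.54, 0.30 and 1.91 on the cobalt arrays and -0.59, 1.46, -0.54 and -1.58 on the saline arrays. It was the only named member with its highest value on the cobalt 48 h array and its lowest on the saline 48 h array. Its 2 probes that passed carry the design name of a predicted Ifit1 gene, on the strand opposite to the probe that RefSeq names Ifit1, and that further probe was above background on 1 array only and was not tested. Which Ifit gene this signal comes from is therefore uncertain. Oas1, a synthetase of the 2-5A messenger that switches on an RNA-cutting enzyme, had 0.34, 0.03, 1.497 and 0.46 on the cobalt arrays and -0.005, 2.02, -0.17 and -1.12 on the saline arrays. Rat carries several close Oas1 copies, and a 60-base probe may not keep them apart.

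**Figure D3:**
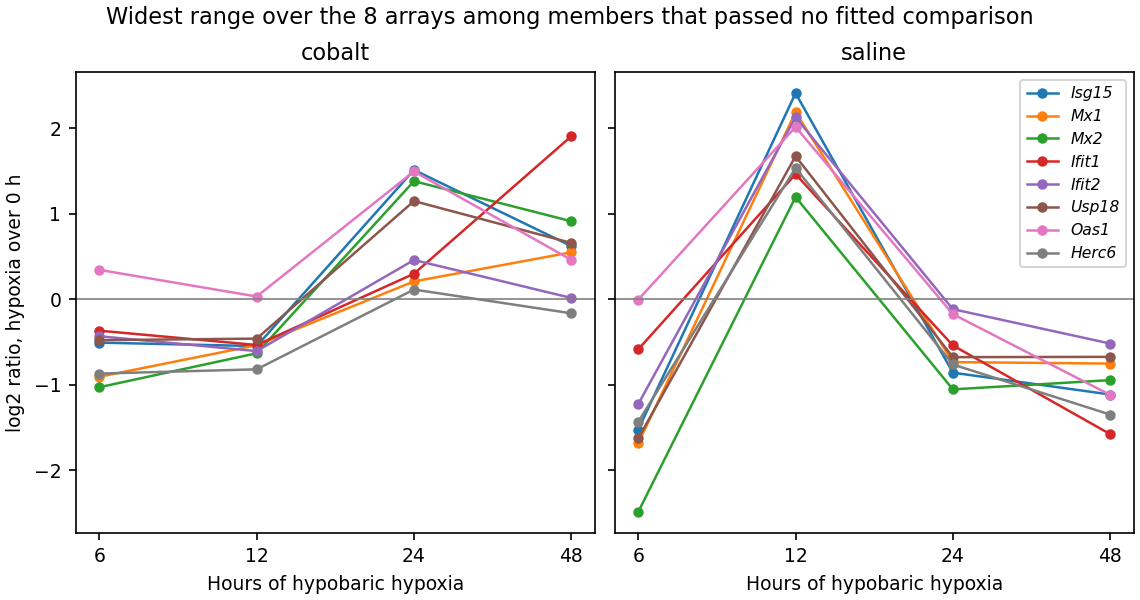
Log2 ratio of hypoxia over 0 h (y axis) against hours of hypoxia (x axis, evenly spaced) for the 8 genes with the widest range over the arrays among those that passed no fitted comparison, cobalt on the left and saline on the right, each point 1 array. All 8 lines peak at 12 h in saline, whereas in cobalt 6 of them peak at 24 h and Mx1 and Ifit1 at 48 h.

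The remaining effectors spanned a narrower range. Ifit3, Oasl1, Adar (an RNA editing enzyme), Isg20 (an exonuclease), Parp9, Ifi35 and Ifi44 had their saline maximum at 12 h, between 0.17 for Adar and 1.61 for Ifit3. Their late cobalt arrays were all above their early ones. The transcription factor Irf7, which drives the genes of type I interferons, had -0.51, -0.29, 0.69 and 0.70 on the cobalt arrays and -0.88, 1.87, -0.55 and -0.77 on the saline arrays. Ddx58, the RNA sensor also called RIG-I, had -0.66, -0.42, 0.63 and 0.13 on the cobalt arrays and -0.78, 0.81, -0.50 and -0.37 on the saline arrays. Both were highest at 12 h in saline and higher late than early in cobalt. Where a gene had several probes that passed (Bst2, Ddx58, Ifi44, Ifit1, Ifit2 and Usp18), the brightest stands for it, and the further probes also had the saline 12 h array highest of the saline arrays.

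The Ifitm family, membrane proteins that hinder viral fusion, departed from this order at 6 h in saline. Ifitm1 had log2 ratios of 0.21, -0.06, -0.04 and -0.29 on the cobalt arrays and 1.20, 1.29, 0.02 and 0.54 on the saline arrays. Ifitm3 had 0.52, 0.45, 1.08 and 0.72 on the cobalt arrays and 0.97, 1.07, -0.27 and 0.06 on the saline arrays. Ifitm2 lay between -0.29 and 0.08 on the cobalt arrays and had 0.97, 0.51, -0.03 and -0.01 on the saline arrays. All 3 were above 0 h on the saline 6 h array, where 21 of the 25 genes were below it, against 47.4% of all genes. The fourth gene above 0 h there was Isg20, at 0.16.

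Against 0 h, the early arrays and the late saline arrays were mostly low and the late cobalt arrays mostly high, by small amounts, apart from saline 12 h, where 23 of 25 genes were above 0 h, against 53.1% of all genes. The member medians were -0.37, -0.31, 0.35 and 0.35 on the cobalt arrays at 6, 12, 24 and 48 h, and -0.66, 1.13, -0.55 and -0.67 on the saline arrays. At least 2-fold higher than 0 h were 1, 1, 6 and 2 members on the cobalt arrays, against 1.72%, 1.11%, 1.43% and 1.19% of all genes, and 1, 14, 0 and 0 on the saline arrays, against 2.47%, 3.93%, 1.37% and 2.16%. At least 2-fold lower were 2, 1, 0 and 0 members on the cobalt arrays, against 1.19%, 0.833%, 0.928% and 0.609% of all genes, and 9, 0, 2 and 6 on the saline arrays, against 2.54%, 2.97%, 1.47% and 1.51%. With median centring in place of loess, the median of all genes itself moved to between -0.53 and -0.45 on the cobalt arrays and between 0.23 and 0.34 on the saline arrays. Relative to that median, the member median was then -0.65, -0.69, 0.03 and -0.04 on the cobalt arrays and -0.48, 1.77, -0.19 and -0.28 on the saline arrays. The rise at saline 12 h and the order of the durations were present under that setting too, but the late cobalt arrays were then within 0.04 of the median of all genes.

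Fitted over the 4 durations of a pretreatment, few members passed the test. In the mean of both pretreatments Ifitm3 rose by 0.57 ± 0.15 (limma estimate ± SE, 8 arrays, adjusted p = 0.0157), with 7 of 8 arrays above 0. Irf1, a transcription factor induced by both interferon types, fell by 0.33 ± 0.08 (adjusted p = 0.0133), with 6 of 8 arrays below 0. Gbp2, a GTPase that attacks the vacuoles of intracellular microbes, fell by 0.67 ± 0.22 (adjusted p = 0.0451), with 7 of 8 arrays below 0. Its log2 ratios were -1.08, -1.12, -0.33 and -0.53 on the cobalt arrays and -1.68, 0.84, -0.85 and -0.59 on the saline arrays, so that only saline 12 h was above 0. The counts of 1 member higher and 2 lower of 25 stand beside 15.7% of all genes higher and 16.3% lower, and the member median was -0.06. The median SE of the members was 0.18, against 0.06 over all genes. The call on Gbp2 was lost without any 1 of 7 of the 8 arrays (adjusted p 0.0593 to 0.107). Without both 12 h arrays Ifitm3 (adjusted p = 0.0561) and Irf1 (adjusted p = 0.0539) did not pass. Without the saline 12 h array, 8 members passed, 7 of them lower and 1 higher, against 13.5% of all genes lower and 13.4% higher.

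In cobalt lungs alone, Bst2 rose by 1.60 ± 0.19 (adjusted p = 0.000944) and Ifitm3 by 0.69 ± 0.21 (adjusted p = 0.0421), and no member fell, against 8.54% of all genes higher and 12.3% lower. The member median was 0.0007. The call on Ifitm3 was lost without any 1 of the 4 cobalt arrays (adjusted p 0.0838 to 0.168), with duration as a replicate block (adjusted p = 0.0754), and turned to -0.41 with median centring. Under median centring 14 members were called in cobalt, 1 higher and 13 lower, against 20.3% of all genes higher and 60.1% lower. In saline lungs alone, Ifitm1 rose by 0.76 ± 0.18 (adjusted p = 0.00928), Bst2 fell by 1.40 ± 0.19 (adjusted p = 0.000585) and Irf1 fell by 0.68 ± 0.11 (adjusted p = 0.00162), against 21.8% of all genes higher and 18.3% lower. For Bst2 the same dye was the brighter in both pretreatments. The member median was -0.25. With the saline 12 h array left out, 15 members passed, of which 14 were lower after hypoxia and 1 higher, against 14.4% of all genes lower and 16.9% higher. Without both 12 h arrays 14 passed, all lower, against 12.5% of all genes lower and 14.5% higher. With median centring 7 members passed in saline, all higher, against 49.7% of all genes higher and 9.39% lower, and Irf1 stood at -0.18 (adjusted p = 0.257).

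The response of cobalt lungs differed from that of saline lungs for 4 members, 3 higher and 1 lower, against 12.7% and 17.4% of all genes. For Irf1 the cobalt minus saline difference was 0.70 ± 0.16 (adjusted p = 0.0103). Its log2 ratios were -0.30, -0.13, 0.18 and 0.35 on the cobalt arrays and -0.58, -0.52, -0.92 and -0.69 on the saline arrays. For Stat2, a transcription factor of the type I signal, the difference was 0.62 ± 0.21 (adjusted p = 0.0486). Its log2 ratios were -0.09, -0.01, 0.64 and 0.50 on the cobalt arrays and -0.60, 0.05, -0.58 and -0.30 on the saline arrays, with the saline 12 h value inside the cobalt range. For Ifitm1, whose values are above, the difference was -0.81 ± 0.26 (adjusted p = 0.0406), and the saline 24 h value lay inside the cobalt range. The calls on Ifitm1 and Stat2 were each lost without any 1 of 6 arrays (highest adjusted p 0.0949 and 0.128). That on Stat2 was also lost in 5 of 10 other settings (adjusted p 0.0517 to 0.284), namely no background subtraction, median centring, scaling between arrays, no filter and duration as a replicate block (adjusted p = 0.0615). With median centring 16 members passed, all lower in cobalt, against 61.9% of all genes lower and 17% higher. The difference of Irf1 then turned to -0.67 (adjusted p = 0.00648) and that of Stat2 to -0.24 (adjusted p = 0.284).

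Bst2, also called tetherin, holds budding viruses at the cell surface, and it had the largest difference of the 25 genes. Its log2 ratios were 1.35, 1.54, 1.96 and 1.56 on the cobalt arrays and -2.16, -0.65, -1.42 and -1.36 on the saline arrays, with a difference of 3.002 ± 0.27 (limma, adjusted p = 0.000169). Hypoxia RNA was in Cy3 on the cobalt slide and in Cy5 on the saline slide, so the Cy3 channel was the brighter on all 8 arrays. Bst2 was the only member of which this was true, against 12.5% of all genes. The second probe gave the same signs, with 1.24 to 1.86 on the cobalt arrays and -1.97 to -0.58 on the saline arrays. In the mean of both pretreatments, where an equal dye effect on both slides cancels, Bst2 stood at 0.10 ± 0.14 (adjusted p = 0.599). With median centring the difference was 0.47 (adjusted p = 0.126) and the saline value 0.005, with saline arrays between -0.71 and 0.78. Within each slide, where the dye is the same, Bst2 followed the order of the other members, with the cobalt 24 h array highest of the cobalt arrays and the saline 12 h array highest of the saline arrays. For Bst2, pretreatment and dye cannot be told apart.

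**Figure D4:**
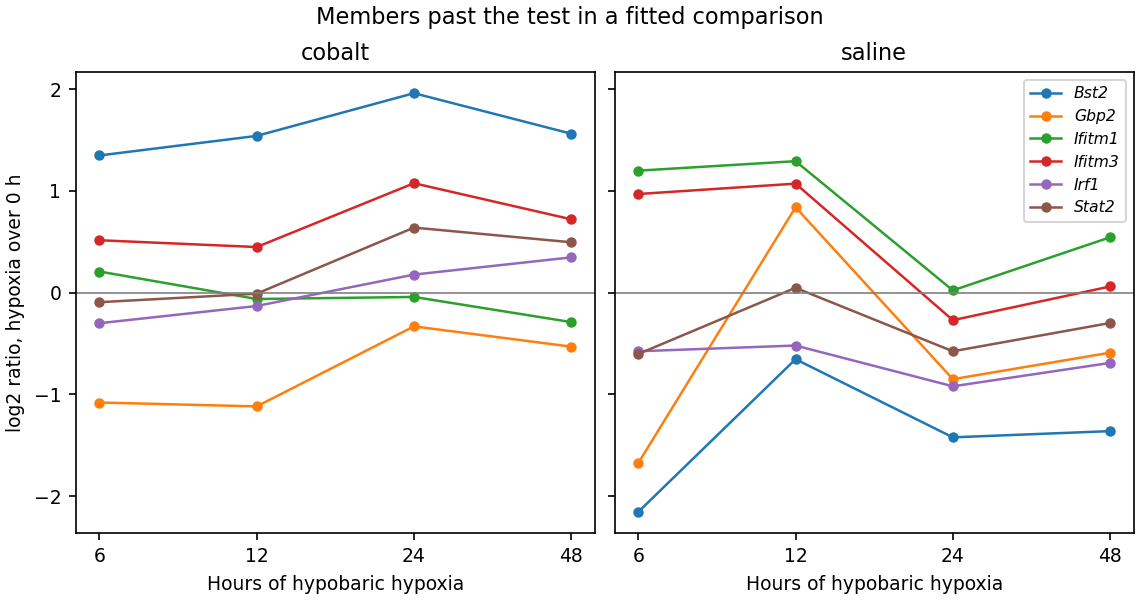
Log2 ratio of hypoxia over 0 h (y axis) against hours of hypoxia (x axis, evenly spaced) for the 6 genes that passed a fitted comparison, cobalt on the left and saline on the right, each point 1 array. The Bst2 line lies between 1.35 and 1.96 in cobalt and between -2.16 and -0.65 in saline.

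Late against early hypoxia was also fitted. In the mean of both pretreatments limma called no member and none of all genes at an adjusted p under 0.05 (0% each way). At an unadjusted p under 0.05 were 4 members, against 12.9% of all genes. The member median was 0.05 while the pretreatments ran in opposite directions, with 0.67 in cobalt and -0.70 in saline. Fitted within cobalt alone no member was called (0% of all genes) and 3 had an unadjusted p under 0.05, against 8.18% of all genes. Within saline alone no member was called either, and 5 had an unadjusted p under 0.05, against 10.2% of all genes. Isg15 had a late minus early difference of 1.60 ± 1.03 in cobalt (adjusted p = 0.717) and of -1.43 ± 1.03 in saline (adjusted p = 0.707). Without the saline 6 h array the early saline group is the 12 h array alone, and the member median in saline was -1.25. Without the saline 12 h array that group is the 6 h array alone, and the member median was 0.17. Both fits within a pretreatment were added after the values were seen.

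At 0 h the level of most members was lower in cobalt than in saline lungs, as far as 1 RNA of each can show. On the log2 scale of normalized intensity, the median cobalt minus saline difference was -0.37, against 0.01 over all genes. It was -0.55 with the processed signals of the scanner software. The third measure averaged the 0 h and the hypoxia channel of each array and so is not of 0 h alone. Its median difference was -0.25. In all 3 measures 17 members were lower, against 41.8% of all genes, and 3 (Ifitm1, Ifitm2 and Irf1) were higher, against 37.6%. At least 2-fold lower were 2 members, against 3.21% of all genes. Mx2 had a 0 h level of 8.04 ± 0.18 on the cobalt arrays and 9.70 ± 0.25 on the saline arrays (SD over 4 arrays of 1 RNA each, a technical spread). Bst2 had 12.36 ± 0.06 on the cobalt arrays and 15.83 ± 0.16 on the saline arrays, in opposite dyes. No test was made, since slide and dye go with pretreatment here too. The Isg15 level after hypoxia itself reached 13.5 on the cobalt 24 h array and 14.8 on the saline 12 h array, and lay between 10.9 and 12.5 on the other 6.

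Of the 7 listed genes without a probe of their name, 6 were measured under older names that RefSeq pairs with them, by 9 probes. They were Rsad2 (named Best5 on the array), Eif2ak2 (Prkr), Ifih1, Dhx58, Ifi27 (Ifi27l) and Irf9 (Isgf3g). In all 6 the saline 12 h array was the highest of the saline arrays and both late cobalt arrays were above both early ones, and in 5 the saline 6 h array was the lowest. Rsad2, or viperin, which makes a chain-terminating nucleotide, had log2 ratios of -0.24, 0.42, 1.16 and 2.00 on the cobalt arrays and -0.89, 3.14, 1.54 and 0.38 on the saline arrays. On this brighter of its probes the saline 12 h value was above that of any of the 25 members, while a dimmer Rsad2 probe had 0.57 there. Eif2ak2, the kinase PKR that halts translation, had -0.33, -0.31, 0.64 and 0.24 on the cobalt arrays and -0.68, 1.44, -0.17 and -0.24 on the saline arrays. A dimmer Eif2ak2 probe had 0.32 on the saline 12 h array.

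Interferons, their receptors and the signal that leads to these genes were also measured. Of 15 interferon names 2 were among the genes tested, and neither Ifnb1 nor Ifng was. Ifna4, a type I interferon, had log2 ratios of 0.06, -0.13, -0.09 and -0.12 on the cobalt arrays and -1.63, 1.77, 1.29 and -0.14 on the saline arrays. It was high at 12 and 24 h in saline and near 0 in cobalt (average 0.12 ± 0.30, adjusted p = 0.784), and its many close relatives may share the probe. Ifna11 stayed between -0.23 and 0.22. Of 4 receptor genes tested 1 fell in the mean of both pretreatments, Ifnar1, by 0.52 ± 0.06 (adjusted p = 0.000347). Ifnar1 stood at -0.87 ± 0.08 in saline (limma, adjusted p = 0.000105) and at -0.16 ± 0.08 in cobalt (adjusted p = 0.201). Its cobalt minus saline difference of 0.71 ± 0.12 (adjusted p = 0.00221) is also one of slide and dye. In the mean, Ifngr1 (-0.21, adjusted p = 0.0683) and Il10rb (-0.11, adjusted p = 0.186) did not pass.

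Of 6 kinases and factors of the signal 1 fell, Jak1, by 0.31 ± 0.05 (adjusted p = 0.00205). Of 7 inhibitors 1 fell, Pias1, by 0.26 ± 0.06 (adjusted p = 0.00848). Of 9 genes of nucleic acid sensing 1 fell, the kinase Ikbke, by 0.25 ± 0.05 (adjusted p = 0.00532). The falls stand beside 16.3% of all genes, and in none of these lists did a member rise in that mean, against the 15.7% of all genes. In saline lungs alone 18.3% of all genes fell and 21.8% rose. Of the lists, 1 of 4 receptors, 2 of 6 genes of the signal, 4 of 7 inhibitors and 2 of 9 sensing genes fell there. Of the sensing genes 1 rose. In cobalt lungs alone 1 gene of the signal and 1 sensing gene fell, against 12.3% of all genes. There 1 inhibitor rose, against 8.54% of all genes. That inhibitor was Socs3, named after its values were seen, at 0.43 ± 0.09 in cobalt (adjusted p = 0.0112) and -0.34 ± 0.09 in saline (adjusted p = 0.0161), a difference of 0.78 ± 0.13 (adjusted p = 0.00254) that is also one of slide and dye.

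Genes best known as targets of interferon gamma mostly showed the orders described for the interferon-stimulated genes. Of 13 tested, 11 had both late cobalt arrays above both early ones, against 22.7% of all genes, 11 had the saline 12 h array highest, against 25.9%, and 11 the saline 6 h array lowest, against 26.4%. In the mean of both pretreatments 3 fell and none rose, against 16.3% and 15.7% of all genes. They were Gbp5, a relative of Gbp2, by 0.56 ± 0.08 (adjusted p = 0.0013), and the immunoproteasome subunits Psmb8, by 0.76 ± 0.15 (adjusted p = 0.00472), and Psmb9, by 0.48 ± 0.16 (adjusted p = 0.0436). The chemokine Cxcl10, named after its values were seen, had log2 ratios of -1.17, -1.54, -0.76 and -0.91 on the cobalt arrays and -0.71, 3.58, 0.32 and 2.04 on the saline arrays. It was below 0 h on every cobalt array and above it on 3 saline arrays.

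**Figure D5:**
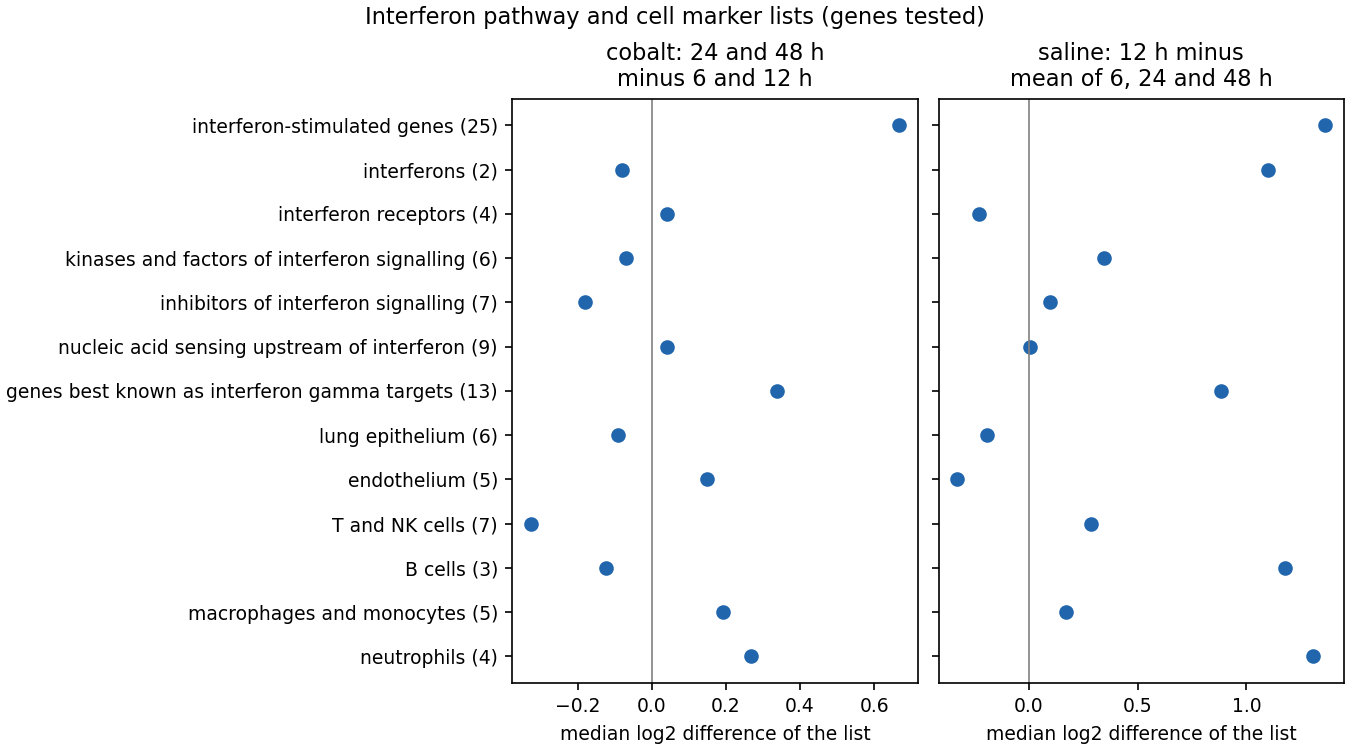
Median log2 difference of each gene list (x axis; number of genes tested in parentheses) for cobalt, 24 and 48 h minus 6 and 12 h, on the left, and for saline, 12 h minus the mean of the other 3 durations, on the right. The interferon-stimulated genes lie at 0.67 and 1.36, the interferon gamma targets at 0.34 and 0.88, and in saline the neutrophil and B cell markers at 1.30 and 1.18.

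Some markers of blood cells also had their highest saline value on the saline 12 h array. It was the highest saline array for 3 of 3 B cell markers, 3 of 4 neutrophil markers and 4 of 7 T and NK cell markers. It was so for none of 5 macrophage and monocyte, 6 epithelial and 5 endothelial markers, against 25.9% of all genes. The summed normalized intensity of the B cell markers after hypoxia was 1284 on the saline 12 h array and 537 to 657 on the other saline arrays, against 839 to 907 in the saline 0 h channel. That of the neutrophil markers was 20083 on the saline 12 h array and 2330 to 9309 on the other saline arrays, against 6651 to 7905 in the saline 0 h channel. The neutrophil markers were not alike on the saline 12 h array. S100a8 and S100a9 had log2 ratios of 1.70 and 1.56 there, while Csf3r and Ngp had -0.32 and -0.17. The sum of the T and NK cell markers was 6104 on the saline 12 h array and 3531 to 4552 on the other saline arrays. In the saline 0 h channel it was 7270 to 7741. On the cobalt arrays after hypoxia the sums were 431 to 620 for B cells and 4070 to 7417 for neutrophils, against 505 to 650 and 3816 to 4369 in the cobalt 0 h channel. Both late cobalt arrays were above both early ones for 0 of 3 B cell, 0 of 7 T and NK cell, 1 of 4 neutrophil and 2 of 5 macrophage and monocyte markers. Over all genes tested that share was 22.7%. No listed marker that was tested was at 0, and Cd79a, Marco and Mpo were not among the genes tested. The part of these cells in the saline 12 h values was not tested. Epithelial markers such as the surfactant genes were present on every array, as the lung label says, with summed intensities of 198858 to 273428 on the cobalt arrays and 125103 to 153046 on the saline arrays after hypoxia. In the 0 h channel these sums were 168503 to 175764 on the cobalt arrays and 280953 to 320407 on the saline arrays. The Cy3 channel thus had the higher sum on every array, and pretreatment and dye cannot be told apart here.

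Members with and without the ISRE core were set side by side. On the cobalt arrays the medians of the 9 members with the core were -0.0003, -0.06, 0.55 and 0.46, and those of the 8 members without it were -0.32, -0.22, 0.23 and 0.09. On the saline arrays they were -0.66, 1.13, -0.36 and -0.59 with the core, and -0.59, 0.56, -0.66 and -0.68 without it. Both sets were highest at 12 h in saline and higher late than early in cobalt. No test was made between them.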

How the data were processed

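Per the file headers, Agilent Feature Extraction 9.5.1.1 read the scans, and its files list for each spot the mean signal and the local background of both channels as an intensity with no normalization. The deposited LogRatio column is, per the file headers, a log10 ratio of red to green which the same software computed from corrected and dye-normalized signals. What the authors deposited as a series matrix proved to be log2 ratios of hypoxia over 0 h. Each column followed LogRatio, put on the log2 scale, with a slope near 1 and a correlation over 0.999 in size. Both were negative on the cobalt arrays, where hypoxia RNA carried Cy3, and positive on the saline arrays. Each column had a median of 0. Of the probes on an array, 57% to 66.6% in the green channel and 62.8% to 72.3% in the red one were clear of background, and the number of arrays limits the precision.

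The mean signals were background-corrected with limma 3.58.1 in R 4.3.3 (tables read with version 1.17.8 of the package data.table), using normexp with an offset of 50, and each array was then set by loess. For 0 h levels, mean intensities were also made equal between arrays by quantiles. Outlier spots were dropped. Probes entered when at least 4 of the 8 arrays had them clear of background in one channel or the other (28421 probes), and each gene was represented by its brightest probe. A limma fit with pretreatment as covariate and a variance trend over mean intensity was made for all 24143 genes together, and an adjusted p (Benjamini-Hochberg) under 0.05 was called. The fit was tested on simulated data. The members, the pathway and marker lists and the tests were chosen with earlier results of these data known. Full values are given for members called in a fitted comparison and for the 8 others with the widest range, with the additions named in the text, and up to 3 genes of each further list with the lowest p in the mean of both pretreatments are named. The values of 1 gene that this rule would name are not reported here. Other settings tried were the ratio of the scanner software, the series matrix, omission of the background step, centring on the median, a common spread for all arrays, looser and stricter filters, averaged probes, inclusion of outlier spots, duration as a replicate block, and omission of each array. Members were matched by the gene name in the array files, and genes of the further lists also by RefSeq accession or synonym. Promoters come from RefSeq (GRCr8), and probe positions from the array files (rn3).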

Additional observations from a re-analysis of the deposited data

Results flagged for a closer look

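For 4 members the response to hypoxia differed between cobalt and saline lungs by limma's test of the difference itself (8 arrays). The cobalt minus saline difference was 3.002 for Bst2 on the log2 scale, with all 4 cobalt arrays above 0 and all 4 saline arrays below it, and for this gene the same dye was the brighter on every array. It was 0.70 for Irf1, 0.62 for Stat2 and -0.81 for Ifitm1, and the values of Stat2 and Ifitm1 overlapped between cobalt and saline arrays. Slide, scan and dye go with pretreatment in all 4, and their part in these differences was not tested.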

How the results depend on the processing

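Of 2052 comparisons of a result with an alternative, 1951 kept their direction and side of the threshold or moved by less than the set margin. All 9 reversals came from median centring: the saline value of Bst2 was then 0.00495, the cobalt values of Ifitm3 and Irf1 -0.41 and -0.86, the cobalt minus saline differences of Ifitm3, Irf1, Stat2, Oas1 and Herc6 -1.95, -0.67, -0.24, -1.88 and -1.45, and the median step between cobalt 12 h and cobalt 6 h -0.092. Under it 7 members were called in saline, 14 in cobalt (member median -0.80) and 16 in the difference (member median -1.45); the setting moves the median of all genes, as given above. Leaving out 1 array at a time, the number of members called was 2 to 8 in the mean of both pretreatments, 1 to 3 in cobalt, 3 to 15 in saline, 2 to 4 in the difference and 0 to 11 for late against early within saline. The highest counts came without the saline 12 h array, except for late against early, where the saline 6 h array was left out. The early saline group of that last fit is the 12 h array alone. Its count therefore rests on a group of 1 array, and no conclusion is drawn from it. Without both 12 h arrays, an alternative added after the data were seen, 14 members were called in saline, and Ifitm3 and Irf1 in the mean (adjusted p = 0.0561 and 0.0539) and Ifitm1 in saline (adjusted p = 0.0659) were not. With duration as a replicate block in the limma fit, Ifitm3 in cobalt (adjusted p = 0.0754) and Stat2 in the difference (adjusted p = 0.0615) were not called. Ifitm1 was then called in the mean (adjusted p = 0.0352). The labels do not state that durations pair the samples. Deviations of the cobalt and the saline array of a duration from their group means correlated at 0.20, -0.16, -0.19 and 0.43 at 6, 12, 24 and 48 h. The median 0 h level difference was -0.55 with processed signals. With the 0 h and the hypoxia channel averaged, which is not a 0 h level alone, the median difference was -0.25. The cause of these shifts was not tested. A single array per duration leaves the steps between durations without a replicate, and members near background, such as Oasl1, have less signal behind their ratios.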
